A study of Canis lupus familiaris with 22 samples.

Results

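The libraries described here are 6 RNA-seq libraries of macular retinal pigment epithelium with choroid (RPE/choroid) from 3 mixed-breed dogs, of 22 libraries from 7 dogs in all. They were chosen by their labels, which say whether the retina was on at sampling of the RPE/choroid (retina on, 3 libraries) or off before sampling (retina off, 3 libraries). Each dog gave one library of each kind, from its fellow eyes. The question was whether leaving the retina on changes what is measured in the RPE/choroid sample. In every dog the retina-on library came from the right eye and the retina-off library from the left eye, so the way of sampling and the side of the eye cannot be told apart. Dog 1 was a female labrador/pitbull mix with an estimated age of 3 to 5 years, dog 2 a male pitbull mix of 2 to 3 years and dog 3 a male pitbull mix of 3 to 4 years. The labels give no treatment, disease or allele for any of them. The other 16 libraries were macular and peripheral retina and RPE/choroid from 4 other mixed-breed dogs (18-2, 18-6, 18-7 and 18-9, here the first set). Dogs 18-2 and 18-6 were a male pitbull mix of 2 to 3 years and a male mastiff mix of 3 to 5 years. Dogs 18-7 and 18-9 were a female pitbull mix of 3 to 5 years and a female boxer mix of 2 to 3 years. Their libraries served to define gene lists and as a reference level.

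The RPE is a pigmented, single-layered epithelium that takes part in the renewal of the photoreceptor outer segments and recycles visual pigment. The choroid is the vascular bed behind it. The neural retina lies against the RPE, with the photoreceptor outer segments reaching between the microvilli of the RPE. When the retina is peeled, outer segments can stay behind on the RPE, and pieces of RPE can come away with the retina. RNA of photoreceptors and other retinal cells is therefore a known admixture of RPE/choroid preparations, and genes that are far higher in retina serve as a gauge of it.

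Counts were given per Ensembl gene identifier, without gene names, so genes are described here by group and a few by identifier. The retina list held the 200 genes with the largest fold towards retina in macular retina against macular RPE/choroid of the first set, and the RPE/choroid list the 200 with the largest fold in the opposite direction. A macula-high and a periphery-high list held the 100 genes each with the largest fold between macular and peripheral RPE/choroid in the first set. None of the 3 dogs compared here took part in making these lists. Levels are in CPM, counts scaled to the same library total, and a list's level is the sum of the CPM of its genes.

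Total counts ran from 3592007 to 7845325 over the 6 libraries, with 4.26 ± 0.12 M with the retina on and 5.35 ± 2.22 M with the retina off (SD, n = 3 each). The libraries held counts for 17785 to 18919 of the 30951 identifiers. The RPE/choroid list ran from 12563 to 14740 CPM in the 6 libraries, inside or next to the range of the first-set macular RPE/choroid (11638 to 14710 CPM) and far above that of macular retina (91.5 to 143 CPM), which accords with the labelled tissue. For 10 identifiers that were present in every library of a first-set dog and nearly absent from every library of another, the Spearman correlation was 0.862 to 0.892 between the 2 libraries of the same dog and at most 0.629 between dogs. By this measure each library was most like the fellow eye of its labelled dog.

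The retina-off library of dog 3 stood apart. It was the deepest library. Over 15741 genes its Pearson r of log2(CPM + 1) was 0.869 to 0.934 with the libraries of the other dogs of its own set. Those dogs' libraries and its fellow eye had r of 0.928 to 0.966 with each other across dogs. The ranges overlapped through retina-on dog 2 alone, with which it had its highest r across dogs of its set (0.934). Its r with its fellow eye was 0.952. The retina-off library of dog 3 was closest to a first-set macular RPE/choroid library, that of dog 18-9 (r = 0.977). The other 5 libraries had r of 0.853 to 0.947 with the first-set macular RPE/choroid. Results are therefore also given without dog 3.

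The genes of the retina list were higher in sum with the retina on in dog 1, and in dog 2 they were lower. In dog 1 the retina list summed to 349 CPM with the retina on and 68.8 CPM with it off, a 5.07-fold difference. In dog 2 it summed to 18.4 CPM with the retina on and 71.0 CPM with it off, 3.87-fold lower with the retina on. In dog 3 it summed to 36.9 CPM with the retina on and 26.8 CPM with it off, 1.38-fold higher. The retina-on library of dog 1 was thus the highest of the 6 and the retina-on library of dog 2 the lowest, so the groups overlapped over the whole range of the retina-off libraries. In these bulk samples, fewer cells of a type and less RNA per cell cannot be told apart.

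Over the 3 dogs the log2 difference of the retina list, retina on minus retina off, was 0.28 ± 2.15 (mean ± SD, n = 3 pairs). An exact two-sided sign-flip permutation test over the 3 pairs gave p = 0.75, where 0.25 is the smallest value that 3 pairs allow. The mean turned to -0.74 without dog 1. Without dog 3 it was 0.20, and without dog 2 it was 1.40.

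Set against macular retina of the first set, where the same 200 genes summed to 9839 ± 326 CPM (SD, n = 4), the retina-on libraries held 3.55% (dog 1), 0.187% (dog 2) and 0.375% (dog 3) of that level. The retina-off libraries held 0.699% (dog 1), 0.722% (dog 2) and 0.272% (dog 3). The first-set macular RPE/choroid held 0.227% to 0.350%. By this list, retina-on dog 1 and the retina-off libraries of dogs 1 and 2 were above every first-set macular RPE/choroid library. Both libraries of dog 3 were within or close to that range, and retina-on dog 2 was below it. The list was chosen by fold over the first-set macular RPE/choroid, so its range there is low in part by selection. With the list taken from peripheral in place of macular tissue, that range was 0.468% to 0.673%. Retina-on dog 1 then held 3.75%, and the retina-off libraries of dogs 1 and 2 held 1.00% and 0.687%. Both libraries of dog 3 (0.345% on, 0.292% off) and retina-on dog 2 (0.338%) were below every first-set macular RPE/choroid library.

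The size of this gauge depended on how many genes it held, while its direction in each dog did not. With the 500 genes with the largest fold towards retina, the sums were 5128, 174 and 480 CPM with the retina on (dogs 1, 2 and 3) and 983, 1226 and 247 CPM with the retina off. These were 16.2%, 0.548% and 1.52% of the macular retina level with the retina on and 3.10%, 3.87% and 0.779% with it off. The ratio of on to off was 5.22 in dog 1, 0.141 in dog 2 and 1.95 in dog 3.

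Counting genes in place of adding their levels gave the same directions. Of the 200 retina list genes, 102 were higher and 27 lower with the retina on in dog 1, with 71 at 0 in both eyes. In dog 2, 20 were higher and 60 lower, with 120 at 0 in both eyes. In dog 3, 55 were higher and 42 lower, with 103 at 0 in both eyes. Most retina list genes thus had few or no counts in these samples, and 5 of the 200 passed the low-count filter of the model below.

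The RPE/choroid list differed little between eyes, and in each dog in the opposite direction to the retina list. It summed to 12888, 14729 and 12563 CPM with the retina on (dogs 1, 2 and 3) and to 14740, 12579 and 13133 CPM with the retina off. In dog 1, 31 of its 200 genes were higher and 167 lower with the retina on, in dog 2, 142 were higher and 55 lower, and in dog 3, 67 were higher and 133 lower. The mean log2 difference was -0.01 ± 0.22 (SD, n = 3 pairs; exact sign-flip permutation p = 1.0). Its sign is not settled, since it turned to 0.02 without dog 3 and to 0.08 without dog 1. The opposite directions also depended on the lists. With both lists taken from peripheral in place of macular tissue, the log2 differences in dogs 1, 2 and 3 were -0.14, -0.09 and 0.04 for RPE/choroid and 1.91, -1.02 and 0.24 for retina, the same direction in dogs 2 and 3.

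**Figure D1:**
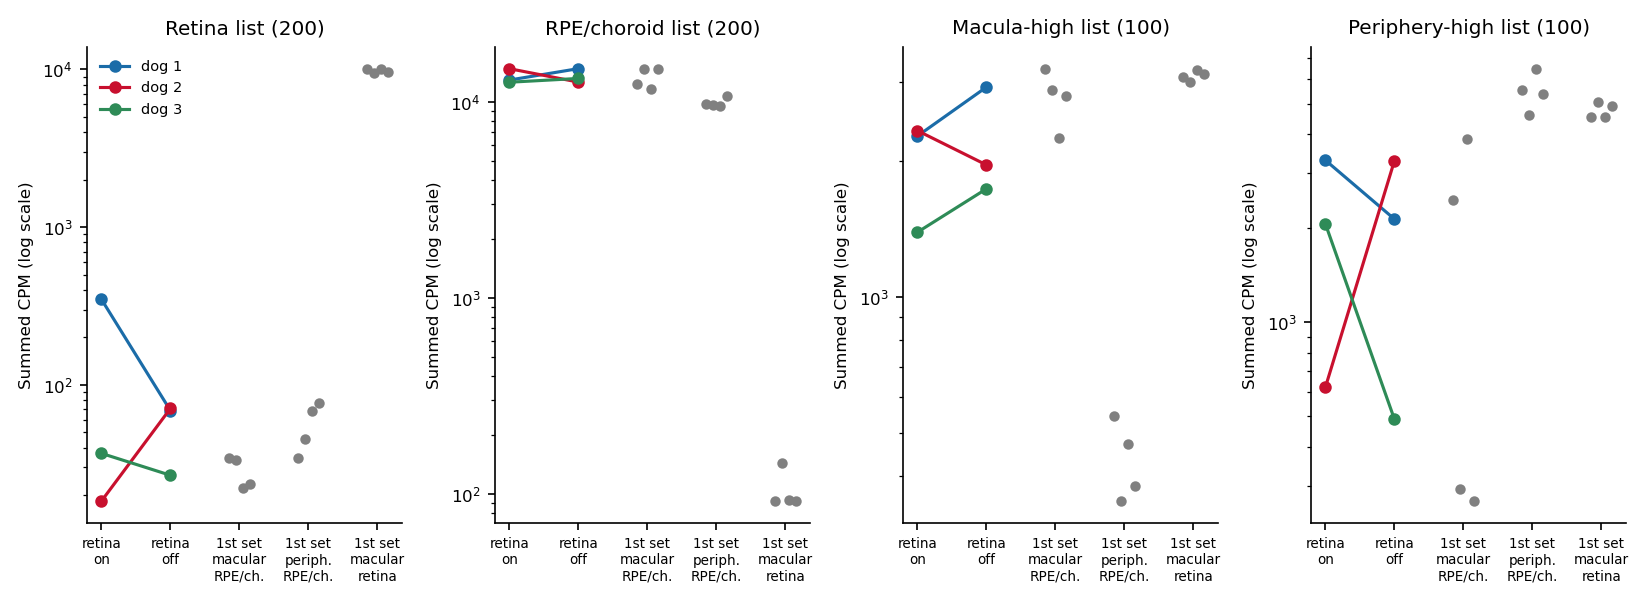
Summed CPM (log scale) of 4 gene lists in each library. Coloured points joined by lines are the fellow eyes of dogs 1 to 3 with the retina on and off, and grey points are first-set libraries. The retina list was at 349 and 68.8 CPM with the retina on and off in dog 1 and at 18.4 and 71.0 CPM in dog 2, while the RPE/choroid list stayed between 12563 and 14740 CPM.

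Regional genes of the RPE/choroid followed the same split between dogs. The periphery-high list summed to 3300 CPM with the retina on and 2140 CPM with it off in dog 1, to 621 and 3287 CPM in dog 2, and to 2065 and 490 CPM in dog 3. It was therefore 1.54-fold higher with the retina on in dog 1, 4.21-fold higher in dog 3 and 5.30-fold lower in dog 2. The mean log2 difference was 0.10 ± 2.29 (SD, n = 3 pairs; exact sign-flip permutation p = 1.0). Of its 100 genes, 71 were higher with the retina on in dog 1, 6 in dog 2 and 80 in dog 3.

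The periphery-high list is not free of retina genes. In the first set 31 of its 100 genes were at least 4-fold higher in macular retina than in macular RPE/choroid, and it summed to 4541 to 5051 CPM in macular retina and 4598 to 6479 CPM in peripheral RPE/choroid. It shared 1 gene with the retina list. In the 4 first-set macular RPE/choroid libraries, all of one label, it was 2471, 293, 3857 and 268 CPM (dogs 18-2, 18-6, 18-7 and 18-9), while their retina list ran from 22.4 to 34.4 CPM. A spread of this size was thus also present among libraries with one label and a low retina list. Which part of the difference between fellow eyes came from the position of the sample and which from retina was not tested.

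The macula-high list differed less between eyes. It summed to 2271, 2335 and 1390 CPM with the retina on (dogs 1, 2 and 3) and to 2916, 1960 and 1735 CPM with the retina off. It was lower with the retina on in dogs 1 and 3 and higher in dog 2, with a mean log2 difference of -0.14 ± 0.34 (SD, n = 3 pairs; exact sign-flip permutation p = 0.50). In the first set it was 2253 to 3204 CPM in macular and 352 to 543 CPM in peripheral RPE/choroid, so all 6 libraries were above every peripheral RPE/choroid library. It was lowest in dog 3, in both eyes, and 3 of the 6 libraries (both of dog 3 and retina-off dog 2) were below every macular library. The list was chosen by the contrast between these same first-set macular and peripheral libraries. That choice raises the macular range and lowers the peripheral range, so a place between the ranges can come from it.

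Across all genes, none passed the test of retina on against retina off. The counts were fitted with edgeR's quasi-likelihood test with the dog as a block, and a gene passed at a Benjamini-Hochberg adjusted p under 0.05. Of 14076 genes tested, 0 passed (0.0%), with a smallest adjusted p of 0.9999 in edgeR, and 84 had an unadjusted p under 0.05. DESeq2 passed 0 genes (71 at an unadjusted p under 0.05), and limma's voom with a quality weight per library passed 0 (1094 at an unadjusted p under 0.05, smallest adjusted p 0.311). The median log2 fold change was 0.22 over the 5 fitted retina list genes. Over the same genes it was 1.26 by voom, and over the 152 retina list genes with a count it was 0.82 without the filter and 0.64 by DESeq2. With the retina list level as a covariate, the median over the 5 genes was -0.71. That fit adjusts the list for its own level, so the value is not an estimate of the difference between the eyes. In the edgeR fit with the dog as a block, the median was -0.04 over 180 RPE/choroid list genes, -0.16 over 94 macula-high genes and 0.17 over 74 periphery-high genes, beside 0.00 over all genes. Except for the macula-high list, the sign of each list's median turned when single dogs were left out.

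Fellow eyes nonetheless differed in many genes within a dog. In dog 1, 335 genes (2.38%) were at least 2-fold higher and 135 (0.959%) at least 2-fold lower with the retina on. In dog 2, 319 (2.27%) were at least 2-fold higher and 860 (6.11%) at least 2-fold lower. In dog 3, 548 (3.89%) were at least 2-fold higher and 972 (6.91%) at least 2-fold lower. The SD over genes of the within-dog log2 difference was 0.42, 0.71 and 0.71 in dogs 1, 2 and 3, so the fellow eyes of dog 1 were the most alike.

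Genes with higher expression in retina made up most of the large increases with the retina on in dog 1. Among 810 fitted genes that were at least 4-fold higher in macular retina than in macular RPE/choroid of the first set (retina-preferential), 281 were at least 2-fold higher with the retina on in dog 1 and 8 at least 2-fold lower. In dog 2, 21 of them were at least 2-fold higher and 343 at least 2-fold lower. In dog 3, 213 were at least 2-fold higher and 71 at least 2-fold lower. As shares these were 34.7%, 2.59% and 26.3% higher, and 0.988%, 42.3% and 8.77% lower. Each share of higher genes in dogs 1 and 3 and of lower genes in dog 2 was well above the share over all genes in the same dog.

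The 1740 fitted genes that were at least 4-fold higher in macular RPE/choroid (RPE/choroid-preferential) leaned the opposite way to the retina-preferential genes in each dog. In dog 1, 2 of them (0.115%) were at least 2-fold higher with the retina on and 43 (2.47%) at least 2-fold lower, beside 2.38% and 0.959% of all genes. In dog 2, 112 (6.44%) were higher and 56 (3.22%) lower, beside 2.27% and 6.11% of all genes. In dog 3, 11 (0.632%) were higher and 210 (12.1%) lower, beside 3.89% and 6.91% of all genes. Of the 8913 genes whose levels in the 2 tissues differed by under 2-fold (shared), 12, 100 and 109 were at least 2-fold higher in dogs 1, 2 and 3 (0.135%, 1.12% and 1.22%) and 38, 167 and 446 at least 2-fold lower (0.426%, 1.87% and 5.0%). All of these shares were below those over all genes in the same dog. The largest was in dog 3, whose retina-off library was the one that stood apart.

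**Figure D2:**
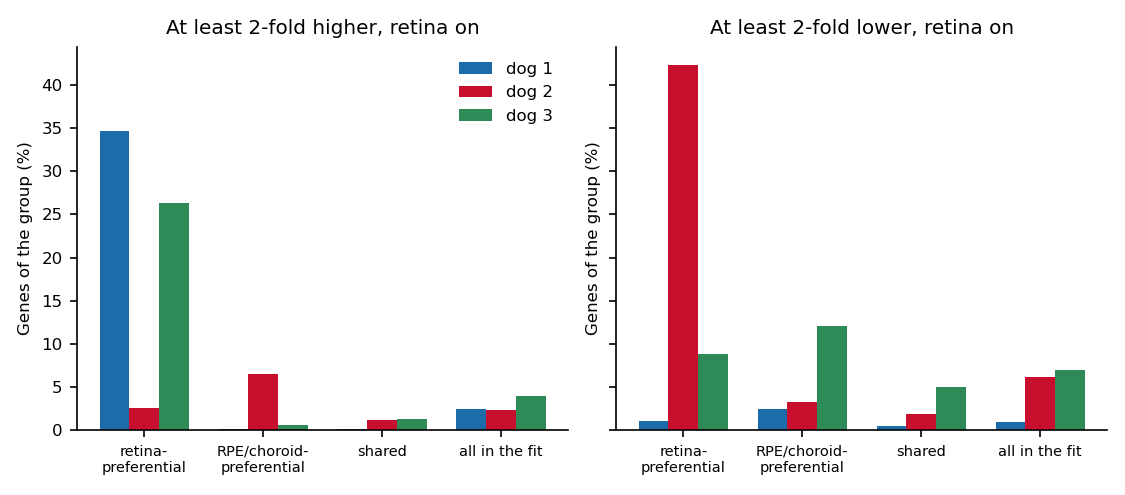
Share of the genes in each group (%) that were at least 2-fold higher (left) or lower (right) with the retina on, by dog, for genes grouped by tissue in the first set. Among retina-preferential genes 34.7% in dog 1 and 26.3% in dog 3 were higher, whereas 42.3% in dog 2 were lower.

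The within-dog differences of dog 2 ran against those of the other dogs over all genes. By Pearson correlation this was strongest over retina-preferential genes among the groups compared. Across the 14076 genes, which are not independent replicates, the Pearson correlation of the within-dog differences was 0.38 between dogs 1 and 3, -0.47 between dogs 1 and 2 and -0.60 between dogs 2 and 3. Over the 810 retina-preferential genes it was 0.40, -0.55 and -0.75. It was 0.38, -0.34 and -0.57 over the 8913 shared genes. Over the 1740 RPE/choroid-preferential genes it was 0.28 between dogs 1 and 3 and 0.00039 between dogs 1 and 2. Between dogs 2 and 3 it was -0.09. The opposition was thus near absent there by Pearson correlation, but not by sign. Of these genes, 33.4% had the same sign in dogs 1 and 2 and 40.6% in dogs 2 and 3. In dogs 1 and 3 the share was 64.1%. Their Spearman correlation was -0.104 between dogs 1 and 2 and -0.206 between dogs 2 and 3. These pairs of dogs share no library, and tissue admixture, sample position and depth are common to all genes of a library. The sign was higher, lower and higher with the retina on in dogs 1, 2 and 3 for 3575 genes, 25.4% of all, and for 378 of the 810 retina-preferential genes, 46.7%. The opposite order of signs was found for 3771 genes, 26.8% of all, and for 687 of the 1740 RPE/choroid-preferential genes, 39.5%.

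Far fewer genes went in one direction in all 3 dogs. With the retina on, 943 genes (6.7%) were higher in every dog and 1007 (7.15%) lower in every dog. All 3 retina-on libraries were above all 3 retina-off libraries for 148 genes (1.05%) and below them for 199 (1.41%). Of the 152 genes that differed at least 2-fold between the eyes of every dog, 124 were higher in dogs 1 and 3 and lower in dog 2, and 119 of those were retina-preferential. Another 1 of the 152 was higher and 6 were lower with the retina on in all 3 dogs, and the 6 were all RPE/choroid-preferential.

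**Figure D3:**
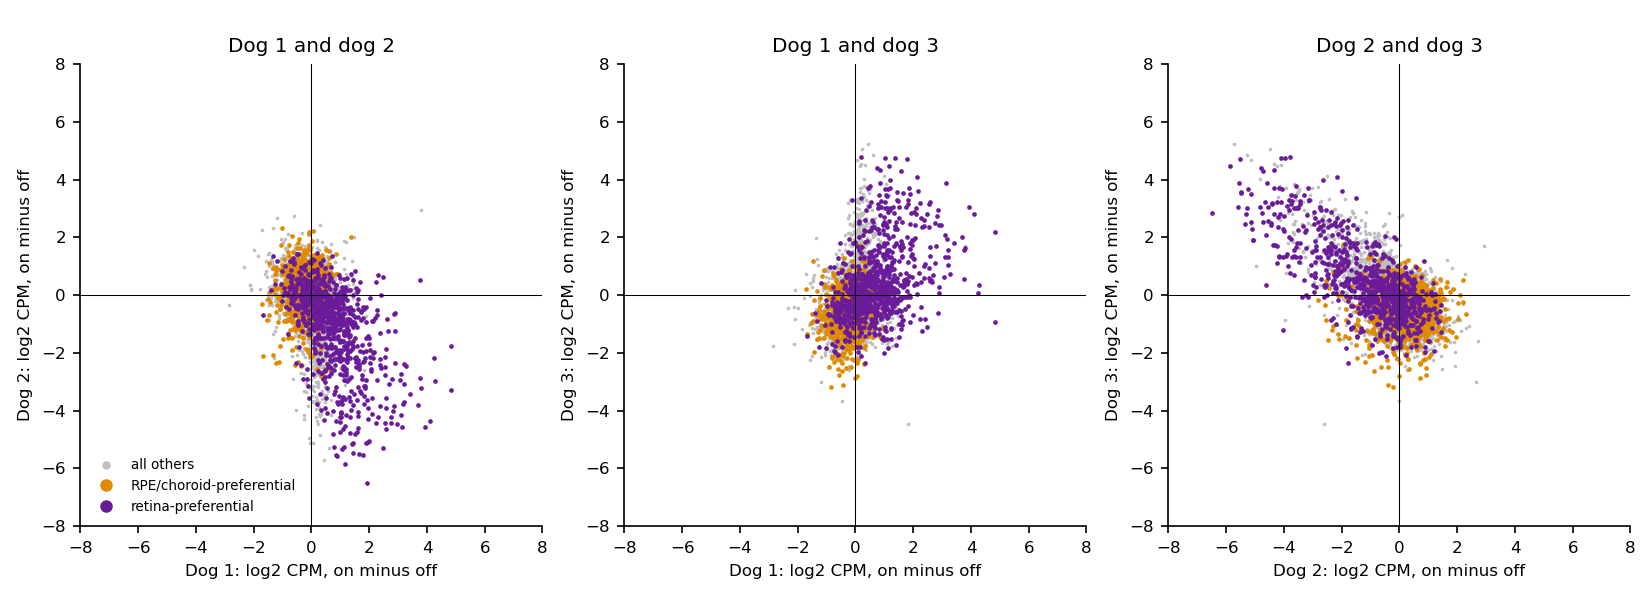
Within-dog difference in log2 CPM, retina on minus retina off, of each of 14076 genes in one dog (x axis) against another (y axis). Of the retina-preferential genes (purple), 65.2% had the same sign in dogs 1 and 3 (Pearson r over all genes 0.38). The share was 22.1% in dogs 1 and 2 (r = -0.47) and 31.2% in dogs 2 and 3 (r = -0.60).

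Leaving out dog 2 changed the outcome of the test. With dogs 1 and 3 alone, 83 of 14312 genes passed edgeR's adjusted p of 0.05, 80 higher with the retina on (0.559%) and 3 lower (0.021%), and 1819 had an unadjusted p under 0.05. Of the 80 higher genes, 74 were retina-preferential, 8.51% of the 870 retina-preferential genes tested. The RPE/choroid list gave 0 genes in either direction among 188 tested, the retina list 2 higher of 8 and the periphery-high list 7 higher of 75. Leaving out dog 1 or dog 3 in place of dog 2 gave 0 genes in edgeR, with 68 and 30 genes at an unadjusted p under 0.05.

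The same 80 genes were then read in dog 2, which had not taken part in that fit. In dog 2, 79 of the 80 were lower with the retina on (98.8%), beside 47.2% of all genes tested, and 78 were at least 2-fold lower. Since 74 of the 80 were retina-preferential, that group is the nearer background. Of its 810 fitted genes, 42.3% were at least 2-fold lower in dog 2, with a median log2 difference of -0.76. The median log2 difference of the 80 genes, retina on minus retina off, was 2.10 in dog 1, 2.39 in dog 3 and -3.21 in dog 2. The 3 genes that were lower with the retina on in dogs 1 and 3, with log2 fold changes of -1.16 to -1.15, were all higher in dog 2. The genes that separated the eyes of dogs 1 and 3 thus also separated the eyes of dog 2, with the sign turned. The labels of dog 2 were used as given. The identifiers that mark single dogs place both of its libraries in one dog but do not tell which eye had the retina on. Whether the labels of its eyes were exchanged was not tested. Every direction given for dog 2, and each count of genes with or without it, rests on these labels.

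As a sum, the 80 genes reached 14590 CPM in retina-on dog 1, 763 CPM in retina-on dog 2 and 2996 CPM in retina-on dog 3. With the retina off they reached 4373, 5983 and 518 CPM. The first-set macular RPE/choroid libraries spanned 534 to 3308 CPM and macular retina 20853 to 24300 CPM. Retina-on dog 1 therefore stood at 66.6% of the macular retina level for these genes, while retina-on dog 2 and retina-off dog 3 stood at 3.48% and 2.37%. The genes were chosen in dogs 1 and 3, so their levels in those dogs are a description.

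**Figure D4:**
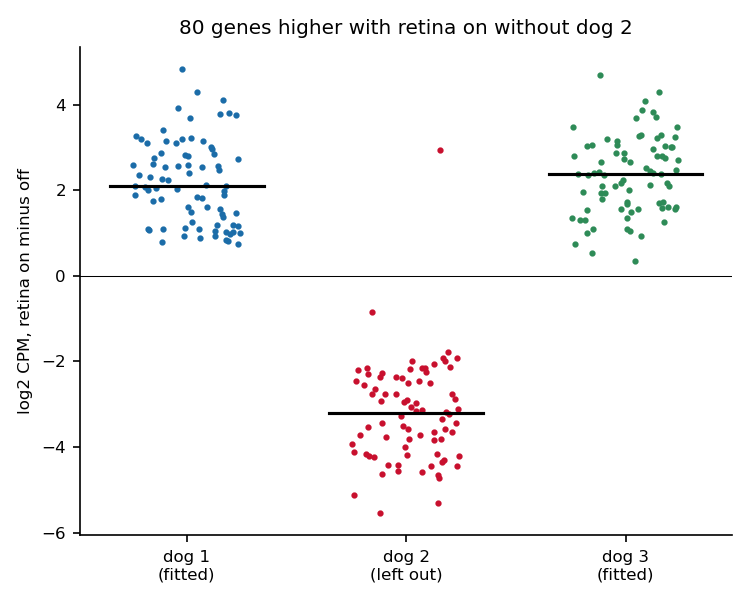
Difference in log2 CPM, retina on minus retina off, of the 80 genes that passed as higher with the retina on when dog 2 was left out. Points are genes, spread sideways at random, and black lines are medians, 2.10 in dog 1, -3.21 in dog 2 and 2.39 in dog 3.

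The 4 identifiers with the steadiest differences over the 3 dogs were all expressed at low levels. They were chosen as those whose smallest within-dog difference was largest, so their agreement over dogs is what selected them and is given as a description. ENSCAFG00000009315 had 35, 21 and 11 counts with the retina on (dogs 1, 2 and 3) and 1, 1 and 4 counts with the retina off. This was 5.27 ± 2.85 CPM against 0.335 ± 0.154 CPM (SD, n = 3 each), and the groups did not overlap. Its log2 fold change was 3.60 ± 0.65 (SE) with an adjusted p of 0.9999 in edgeR. With few counts in any retina-off library, it entered the fit through its retina-on counts. It was also the 1 gene that passed with the retina list level as a covariate, which adds no support, since the same values had selected it. In the first set it varied widely within one label, from 0 to 4.04 CPM in macular RPE/choroid and from 0.322 to 7.62 CPM in macular retina.

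ENSCAFG00000016124, a retina-preferential gene, was at 5.63, 2.42 and 2.52 CPM with the retina on and 1.74, 1.11 and 0.892 CPM with the retina off. The groups did not overlap, and its log2 fold change was 1.46 ± 0.41 (SE; edgeR adjusted p = 0.9999). With 8, 4 and 7 counts with the retina off, it too entered the fit through its retina-on counts. Both the filter and the choice of the identifier thus favoured such a separation. It was higher with the retina on in dog 2 too, unlike most retina-preferential genes, but the rule that picked it required this. First-set macular retina had 14.9 ± 4.79 CPM of it and macular RPE/choroid 1.09 ± 0.656 CPM (SD, n = 4 each).

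Both identifiers with steadily lower values were RPE/choroid-preferential. ENSCAFG00000005365 was at 0.703, 3.38 and 5.04 CPM with the retina on and 3.26, 15.6 and 13.6 CPM with the retina off. It was lower with the retina on within each dog, although the groups overlapped because dog 1 was low in both eyes. Its log2 fold change was -1.88 ± 0.39 (SE; edgeR adjusted p = 0.9999). ENSCAFG00000000665 was at 3.99, 7.25 and 10.5 CPM with the retina on and 10.9, 31.2 and 31.6 CPM with the retina off, without overlap. Its log2 fold change was -1.71 ± 0.31 (SE; edgeR adjusted p = 0.9999).

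**Figure D5:**
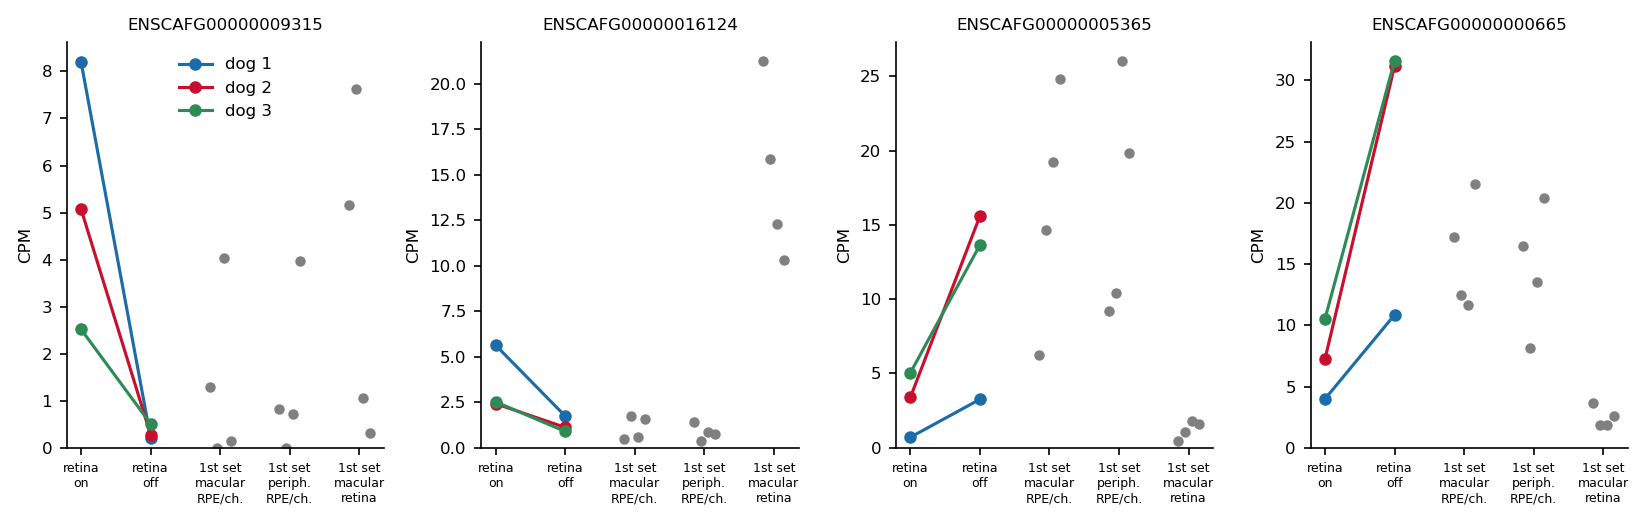
CPM of the 4 identifiers with the steadiest within-dog differences, by library. Coloured lines join the fellow eyes of dogs 1 to 3, and grey points are first-set libraries. ENSCAFG00000009315 and ENSCAFG00000016124 were higher with the retina on in all 3 dogs, and ENSCAFG00000005365 and ENSCAFG00000000665 lower.

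Differences between the dogs were read from the same fit. In it, 13 of 14076 genes (0.0924%) differed between the 3 dogs in edgeR, with 1618 at an unadjusted p under 0.05. That count was 0 without dog 3, 65 without dog 1 and 2202 without dog 2, so it depended on which dogs were compared. Over the 15741 genes used for comparing libraries, the SD of the log2 difference was 0.421 to 0.659 between the fellow eyes of a dog and 0.554 to 1.09 between eyes of different dogs. The ranges overlapped, and the difference between the eyes of dogs 2 and 3 was as large as that between many pairs of dogs.

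Each way of sampling was also set beside the 4 first-set macular RPE/choroid libraries, which are shared by both comparisons. Set and dogs differ between these groups together with sampling, so the parts of these differences cannot be told apart. With the retina on, 2660 genes were higher (18.8%) and 2973 lower (21.0%) of 14171 tested in edgeR. Leaving out single retina-on libraries gave 3862 to 4901 genes. The RPE/choroid list had 25 genes higher and 41 lower of 200, near or below the shares over all genes. The macula-high list had 3 higher and 18 lower of 100. Both lists were chosen for high levels in these same first-set libraries, so a lean towards lower can come from that choice.

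With the retina off, 0 of 14635 genes (0.0%) passed against the same 4 libraries in edgeR, with 3058 at an unadjusted p under 0.05, and DESeq2 passed 124. Without the retina-off library of dog 3, 2935 genes were higher (19.9%) and 3148 lower (21.3%) of 14751 tested in edgeR. The count of 0 therefore rested on that library, and whether the 2 ways of sampling differ in their distance from the first set was not tested. Of the 200 RPE/choroid list genes, 23 were then higher and 37 lower, close to the retina-on comparison and with the same limit from the choice of the list.

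The identifiers that differed most between retina-on and first-set libraries show how far single libraries carried such calls. ENSCAFG00000047270 was at 8.44, 12.6 and 9.38 CPM with the retina on and at 0 to 0.875 CPM in the first-set macular RPE/choroid (log2 fold change 4.96 ± 0.71 SE, edgeR adjusted p = 0.00306). It was at 8.90, 27.6 and 2.17 CPM with the retina off, so it was high in both kinds of sample of dogs 1 and 2. ENSCAFG00000019228, a retina-preferential gene, was at 96.6, 0 and 6.87 CPM with the retina on (log2 fold change 4.91 ± 1.59 SE, edgeR adjusted p = 0.0421). Without dog 1 its log2 fold change was 1.59, and it no longer passed (edgeR adjusted p = 0.403).

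Both identifiers named as lower were RPE/choroid-preferential. ENSCAFG00000023582 had 0, 2 and 0 counts with the retina on and 47 to 136 counts in the 4 first-set macular RPE/choroid libraries, and passed in edgeR (adjusted p = 0.00257). The pooled CPM of the first-set libraries was 85.4-fold higher, with an exact binomial 95% interval of 23.5 to 708 that covers counting error only. Both retina-on counts were in dog 2. Without that library the retina-on group had 0 counts, and the first set was at least 38.5-fold higher, against a floor of 3 counts over the group. With the retina off it had 0, 7 and 37 counts, the highest in dog 3. ENSCAFG00000032078 had 0, 0 and 9 counts with the retina on and 19 to 305 counts in the first set, with a log2 fold change of -4.43 ± 1.39 (SE; edgeR adjusted p = 0.0376). All 9 counts were in dog 3. Without that library the first set was at least 46.7-fold higher, against the same floor, and the identifier still passed in edgeR (adjusted p = 0.0356). It no longer passed in edgeR without retina-on dog 1 or dog 2.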

How the data were processed

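The deposited files hold raw read counts per Ensembl gene identifier, 1 file per library. Tools listed in the submitters' processing notes are featureCounts 2.0.0, HISAT2 2.1.0, Trimmomatic 0.39, SAMtools and FastQC 0.11.8, with no roles. Per the labels' protocols, libraries were made from total RNA with a directional kit. The strand setting, annotation release and build were not given in the sources used here, and overlapping genes are therefore uncertain. None of the 30951 identifiers matched a symbol in the reference table (0 Ensembl entries, assembly UU_Cfam_GSD_1.0), so the planned marker lists by gene symbol were not used and no sequences are shown.

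Counts were tested with edgeR 4.0.16 (TMM, filterByExpr by group, glmQLFit and glmQLFTest) in R 4.3.3, with the dog as a block because the labels tie both libraries of a number to one dog. Deviations from the group means correlated by 0.62, -0.06 and 0.51 between fellow eyes of dogs 1, 2 and 3. Standard errors were derived from the fold change and the F statistic. Alternatives were DESeq2 1.42.0, limma 3.58.1 voom, RLE size factors, no filter, no block and leaving out dogs. Lists required a mean log2 CPM of at least 1. The retina and RPE/choroid lists and the 4-fold tissue groups required an adjusted p under 0.05, and the regional lists an unadjusted p under 0.05. Within-dog log2 CPM used a prior count of 2. Identifiers named for retina on against off are the 2 higher and 2 lower whose smallest within-dog difference was largest. Those named against the first set are the 2 in each direction with the largest fold past the threshold. A mean log2 CPM of at least 1 was required of both. There was 1 eye per dog and label. With the dog as a block, p-values rest on how the within-dog difference varied over these 3 dogs. The test between the dogs used that same spread. P-values against the first set rest on the spread among the dogs within each group. No pair of libraries agreed within counting noise (chi-square per degree of freedom at least 6.64). The code was tested on simulated data. Members and lists were chosen with earlier results of these data known.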

Additional observations from a re-analysis of the deposited data

How the results depend on the processing

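The count of 0 genes between retina on and off stayed 0 under RLE size factors, no filter, DESeq2, voom, thinning to 3592007 counts, removal of retina-preferential genes and no replicate block (44 genes at an unadjusted p under 0.05 in edgeR without the block). It was 1 with the retina list level as a covariate, and 0 to 83 with dogs left out. The covariate, the gene removal and the thinning were chosen after seeing the data. Genes differing between dogs numbered 13, against 119 without the filter, 465 by DESeq2 and 0 to 2202 with dogs left out. Genes between retina off and the first set numbered 0, against 124 by DESeq2 and 0 to 6083 with retina-off libraries left out. With dogs left out, the mean log2 difference was -0.74 to 1.40 for the retina list and -0.13 to 0.082 for the RPE/choroid list, which was 0.00045 with 500 genes. Median log2 fold changes with dogs left out were -0.14 to 1.41 (retina list, not computable without dog 1, when none of its genes passed the filter), -0.26 to 0.045 (RPE/choroid list) and -0.64 to 1.12 (periphery-high list, -0.078 without the replicate block). The cause of these shifts was not tested. With 3 pairs, the exact permutation test cannot reach 0.05, and retina list sums rest on 76 to 1489 counts per library.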

Other observations

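A set of 73 genes, picked after the within-dog differences had been seen and therefore given without a test, differed by under 0.5 on the log2 scale between the eyes of dog 1. They were at least 4-fold lower with the retina on in dog 2 and at least 4-fold higher in dog 3. No gene showed the mirror image at the same limits. In the first set, 11 of the 73 were retina-preferential, 0 RPE/choroid-preferential and 22 shared. Over all 14076 genes in the fit, these groups held 810, 1740 and 8913 genes. Of the 73, 15 were in the periphery-high list, which had 74 genes in the fit. Their summed level was 6177, 1036 and 4683 CPM with the retina on (dogs 1, 2 and 3) and 5420, 8438 and 582 CPM with the retina off.

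In the first set the same genes were highest in peripheral RPE/choroid, at 7445 to 9307 CPM, and reached 2899 to 4278 CPM in macular retina. In macular RPE/choroid they were at 5280 and 7733 CPM in dogs 18-2 and 18-7 and at 769 and 500 CPM in dogs 18-6 and 18-9. The retina-on library of dog 2 and the retina-off library of dog 3 were thus near the lower first-set macular libraries. The other 4 libraries were nearer to the higher ones. In 4 of the 6 libraries the level was above that of any macular retina library. The part of retina or of sample position in these levels was not tested.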
